A study of Saccharomyces cerevisiae with 8 samples.

Results

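Transcripts of 47 genes for N- and O-linked protein glycosylation in *Saccharomyces cerevisiae* were followed by strain and growth phase, out of 5444 genes measured. The genes were chosen by name, as those for the supply of GDP-mannose, dolichol carriers, the lipid-linked oligosaccharide, oligosaccharyltransferase, trimming in the ER, O-mannosylation and the Golgi mannosyltransferases, and each had 1 probe set. All cultures were of the haploid strain CEN.PK113-11C (by the methods of mating type α, mutant in *HIS3* through his3Δ1 and in *URA3*, with MAL2-8c and SUC2) in minimal glucose medium. The L-UBB+1 strain carried p413 TEF-UBB+1, from which the frameshifted human ubiquitin UBB+1 is expressed constitutively at a low level from the *TEF* promoter, and the control strain carried the same plasmid without an insert. Each strain was sampled on day 6 (D6, stationary phase) and in the exponential phase (EX), with 2 biological replicates per strain and phase and 8 arrays in all. Values are normalized log2 levels, in which a difference of 1 is a doubling. They give the share of a transcript in the RNA, so that a change in total RNA per cell would not be seen.

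N-glycosylation starts with an oligosaccharide that is built on the lipid dolichol, first on the cytosolic and then on the lumenal side of the ER membrane. Oligosaccharyltransferase moves the finished oligosaccharide to asparagines of proteins entering the ER, glucosidases and a mannosidase trim it, and in yeast the Golgi extends it with a long mannose chain. O-mannosylation starts in the ER, where the protein O-mannosyltransferases add a mannose from dolichol phosphate mannose to serine or threonine. Both routes draw on GDP-mannose, and much of the product ends in the mannoproteins of the cell wall.

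The labels of growth phase and the marker transcripts did not run together. Over 10 stationary phase markers such as *SPG4* and *ADH2*, the median log2 level was 11.64 to 12.08 on L-UBB+1 D6 arrays and 7.99 to 8.29 on control D6 arrays. On EX arrays it was 11.61 to 12.03 in the L-UBB+1 strain and 8.89 to 9.01 in the control strain. Over 10 cell division markers such as the cyclins *CLN2* and *CLB2*, the medians were 6.74 to 7.03 on L-UBB+1 D6 arrays and 8.60 to 9.10 on control D6 arrays, and 6.73 to 7.01 on L-UBB+1 EX arrays and 8.72 to 8.98 on control EX arrays. In the L-UBB+1 strain 5 of the 10 stationary phase markers were called higher at each phase, against 17.9% of all genes at D6 and 17.2% at EX. Another (*SNO1*) was called lower at D6. Of the 10 division markers 8 were called lower at D6 and 9 at EX, against 18.5% and 17.1% of all genes. The arrays labelled control D6 thus carried division markers near the control EX level and a lower median of the stationary phase markers. Of these 10 markers 0 were called between the phases of the control strain, as were 0 of all genes, with a median log2 difference of -0.42. The arrays labelled L-UBB+1 EX resembled L-UBB+1 D6. From these arrays alone, strain, growth state and an exchange of labels between the control D6 and L-UBB+1 EX cultures cannot be told apart; measurements of the study other than the arrays were not used here. The groups are named as labelled, and every comparison of the strains below is also one between arrays that differ in these markers. Over the 47 genes, L-UBB+1 D6 replicate 2 and L-UBB+1 EX replicate 1 differed by an SD of 0.065, and L-UBB+1 D6 replicate 1 and EX replicate 2 by 0.11, while replicates of a group differed by 0.14 to 0.24. Of 4 genes specific to mating type a, *MFA2*, *STE2* and *AGA2* were called lower in the L-UBB+1 strain at both phases and *MFA1* was not called (0.64 and 0.31 at D6 and EX). Of 4 genes specific to mating type α, *SAG1* was called higher at EX (1.06) and not at D6 (0.99). *STE3* (0.98 and 0.61), *MF(ALPHA)1* and *MF(ALPHA)2* were called at neither phase. On every array the median log2 level of the a-specific genes lay above that of the α-specific genes. Control medians were 9.614 to 9.915 against 6.11 to 6.506 at D6 and 9.642 to 9.758 against 6.457 to 6.563 at EX. L-UBB+1 medians were 7.953 to 8.03 against 7.013 to 7.059 at D6 and 7.882 to 7.909 against 6.954 to 7.001 at EX. This order runs against the mating type α given in the methods, and the mating type of the cultures was not tested.

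Transcripts for glycosylation were lower in the L-UBB+1 strain at both phases. In limma fits across the 5444 genes, a gene was called where its Benjamini-Hochberg adjusted p lay under 0.001 and its mean differed by 1 or more on the log2 scale. At D6, 33 of the 47 genes were called lower (70.2%) and 0 higher, where 18.5% of all genes were called lower and 17.9% higher. For EX, the counts were 29 lower (61.7%) and 0 higher, against 17.1% and 17.2% of all genes. All 29 genes called lower at EX were also called lower at D6 (61.7% of the 47, against 14.9% of all genes). Over all genes, 812 of the 929 called lower at EX were also called lower at D6. Of the 47, 14 were called at neither phase, as were 59.3% of all genes. Without both L-UBB+1 arrays numbered 1, which leaves 1 array of each close pair, 27 genes were called lower at D6 and 24 at EX. With an adjusted p under 0.05 and no minimum fold, 41 of the 47 were lower and 3 higher at D6, against 38.4% and 37.7% of all genes, and 40 were lower and 4 higher at EX, against 37.5% and 37.2%. The median log2 fold change of the 47 genes was -1.34 at D6 and -1.25 at EX, and that of all genes was -0.01 and 0.00. On single arrays, the median log2 level of the 47 genes was 8.03 and 8.10 in L-UBB+1 D6 and 9.44 and 9.67 in control D6, and 8.12 and 8.11 in L-UBB+1 EX and 9.37 and 9.41 in control EX. For 41 of the 47 genes all 4 L-UBB+1 arrays lay below all 4 control arrays (38.1% of all genes), for 3 they lay above (38.3%), and for *ALG7*, *ALG13* and *MNN5* the strains overlapped.

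**Figure D1:**
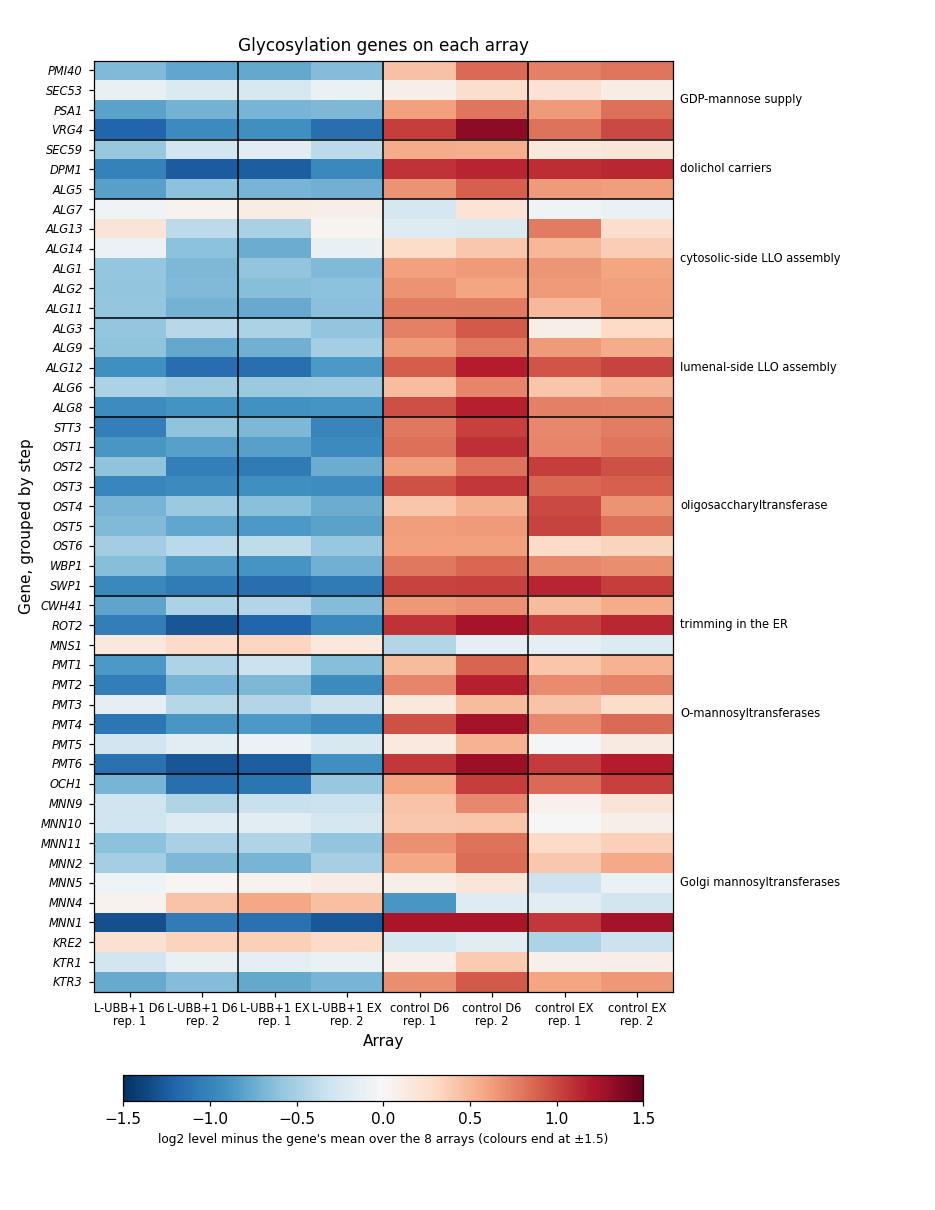
Colour gives the log2 level of each of the 47 genes (rows, grouped by step, LLO for lipid-linked oligosaccharide) on each of the 8 arrays (columns), minus the gene's mean over the arrays. Most rows are blue on the 4 L-UBB+1 arrays and red on the 4 control arrays, and *MNS1*, *MNN4* and *KRE2* run the other way.

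GDP-mannose is made from fructose 6-phosphate by *PMI40* (phosphomannose isomerase), *SEC53* (phosphomannomutase) and *PSA1* (GDP-mannose pyrophosphorylase), and *VRG4* carries it into the Golgi. Of these 4 genes, 3 were called lower at each phase (18.5% of all genes at D6 and 17.1% at EX) and *SEC53* was not. The Golgi transporter *VRG4* had log2 levels of 8.15 and 8.38 in L-UBB+1 D6 against 10.38 and 10.68 in control D6, and 8.42 and 8.21 in L-UBB+1 EX against 10.15 and 10.33 in control EX. Its log2 fold change was -2.26 at D6 and -1.93 at EX (standard error 0.15 each; limma adjusted p = 9.08e-06 and 1.9e-05). At D6 and EX the changes were -1.46 and -1.42 for *PSA1* and -1.36 and -1.49 for *PMI40*. *SEC53* was at 10.40 and 10.29 in L-UBB+1 D6 against 10.60 and 10.77 in control D6, and at 10.27 and 10.41 in L-UBB+1 EX against 10.73 and 10.63 in control EX. Every L-UBB+1 array lay below every control array, as for 38.1% of all genes. The log2 fold change of *SEC53* was -0.34 at each phase (95% interval -0.59 to -0.09 at D6), below the fold needed for a call.

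Of the 3 genes for dolichol carriers, *DPM1* and *ALG5* were called lower at both phases, against 14.9% of all genes. The dolichol kinase *SEC59* was lower on every L-UBB+1 array than on every control array (38.1% of all genes) without being called. *DPM1*, which makes dolichol phosphate mannose for the lumenal steps and for O-mannosylation, had log2 levels of 7.78 and 7.55 in L-UBB+1 D6 against 9.88 and 9.93 in control D6. At EX its levels were 7.55 and 7.82 in L-UBB+1 against 9.90 and 9.92 in the control strain, so that the L-UBB+1 arrays of both phases lay more than 2 log2 units under every control array. It was 4.73-fold lower at D6 and 4.67-fold lower at EX. *ALG5*, which makes dolichol phosphate glucose, was 2.83-fold and 2.54-fold lower. *SEC59*, which phosphorylates dolichol, was at 7.20 and 7.48 in L-UBB+1 D6 against 8.33 and 8.32 in control D6, and at 7.598 and 7.377 in L-UBB+1 EX against 7.93 and 7.95 in control EX. Its log2 fold change of -0.98 at D6 just missed the minimum fold (adjusted p = 0.000225 from limma), and it passed with each array centred on its median (-1.008) and without L-UBB+1 D6 replicate 2 (-1.12). At EX it was -0.46 (95% interval -0.75 to -0.16).

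On the cytosolic side of the ER, the early and late enzymes of lipid-linked oligosaccharide assembly differed. *ALG7*, which adds the first sugar phosphate to dolichol phosphate, had log2 levels of 9.01 and 9.11 in L-UBB+1 D6 against 8.79 and 9.27 in control D6, and 9.17 and 9.15 in L-UBB+1 EX against 9.01 and 8.96 in control EX. Its log2 fold change was 0.03 at D6 (95% interval -0.33 to 0.39) and 0.17 at EX (-0.19 to 0.53). *ALG13*, the catalytic subunit for the second sugar, was at 8.496 and 7.915 in L-UBB+1 D6 against 8.11 and 8.08 in control D6, with overlapping groups, and at 7.81 and 8.35 in L-UBB+1 EX against 9.09 and 8.57 in control EX. *ALG14*, its membrane anchor, had log2 fold changes of -0.70 and -0.86 at D6 and EX, and neither subunit was called. The mannosyltransferases that follow, *ALG1*, *ALG2* and *ALG11*, were called lower at both phases, with log2 fold changes from -1.25 to -1.42. These were 3 of the 6 genes of the step (50%), against 14.9% of all genes. *ALG1*, which adds the first mannose, was at 7.62 and 7.53 in L-UBB+1 D6 against 8.81 and 8.84 in control D6, and at 7.61 and 7.54 in L-UBB+1 EX against 8.86 and 8.80 in control EX. The difference between *ALG7* and the mannosyltransferases was not tested.

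All 5 genes of the lumenal steps were called lower at D6 and 4 at EX, against 18.5% and 17.1% of all genes. *ALG12*, the alpha-1,6-mannosyltransferase, had log2 levels of 7.27 and 7.05 in L-UBB+1 D6 against 9.11 and 9.37 in control D6, and 7.07 and 7.33 in L-UBB+1 EX against 9.14 and 9.20 in control EX. Its fold change was the largest of the step, 4.21-fold lower at D6 and 3.93-fold lower at EX. The changes were -1.99 and -1.65 for *ALG8*, which adds the second glucose, -1.39 and -1.21 for the mannosyltransferase *ALG9*, and -1.10 and -1.009 for *ALG6*, which adds the first glucose. *ALG3*, which adds the first lumenal mannose, was at 7.38 and 7.55 in L-UBB+1 D6 against 8.71 and 8.88 in control D6, and fell by 1.34. At EX it was at 7.49 and 7.37 in L-UBB+1 against 8.04 and 8.26 in the control strain, with a log2 fold change of -0.73 that was not called. *DIE2*, which adds the last glucose and was named after its values were seen, had log2 fold changes of -0.23 and -0.04 (adjusted p = 0.067 and 0.736 from limma).

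The subunits of oligosaccharyltransferase were lower throughout. All 9 were called lower at D6 and 8 at EX (18.5% and 17.1% of all genes), with median log2 fold changes of -1.56 and -1.65. For all 9, every L-UBB+1 array lay below every control array, as for 38.1% of all genes. *SWP1*, an essential subunit, had log2 levels of 7.88 and 7.79 in L-UBB+1 D6 against 9.85 and 9.87 in control D6, and 7.71 and 7.79 in L-UBB+1 EX against 9.98 and 9.88 in control EX. The log2 fold change of *SWP1* was -2.02 at D6 and -2.18 at EX (standard error 0.09 each). The catalytic subunit *STT3* had log2 fold changes of -1.72 and -1.57, the essential subunits *OST1*, *WBP1* and *OST2* between -1.90 and -1.51, and the small subunits *OST4* and *OST5* between -1.75 and -1.10. *OST3* and *OST6* are alternative oxidoreductase subunits, each of which defines a form of the complex. *OST3* was at 7.83 and 7.85 in L-UBB+1 D6 against 9.76 and 9.87 in control D6, and at 7.89 and 7.88 in L-UBB+1 EX against 9.67 and 9.71 in control EX. *OST6* was at 7.98 and 8.09 in L-UBB+1 D6 against 9.11 and 9.11 in control D6, and at 8.12 and 7.93 in L-UBB+1 EX against 8.78 and 8.83 in control EX. *OST6* had the smallest change of the complex, -1.07 at D6 and -0.78 at EX, and only the D6 change was called.

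**Figure D2:**
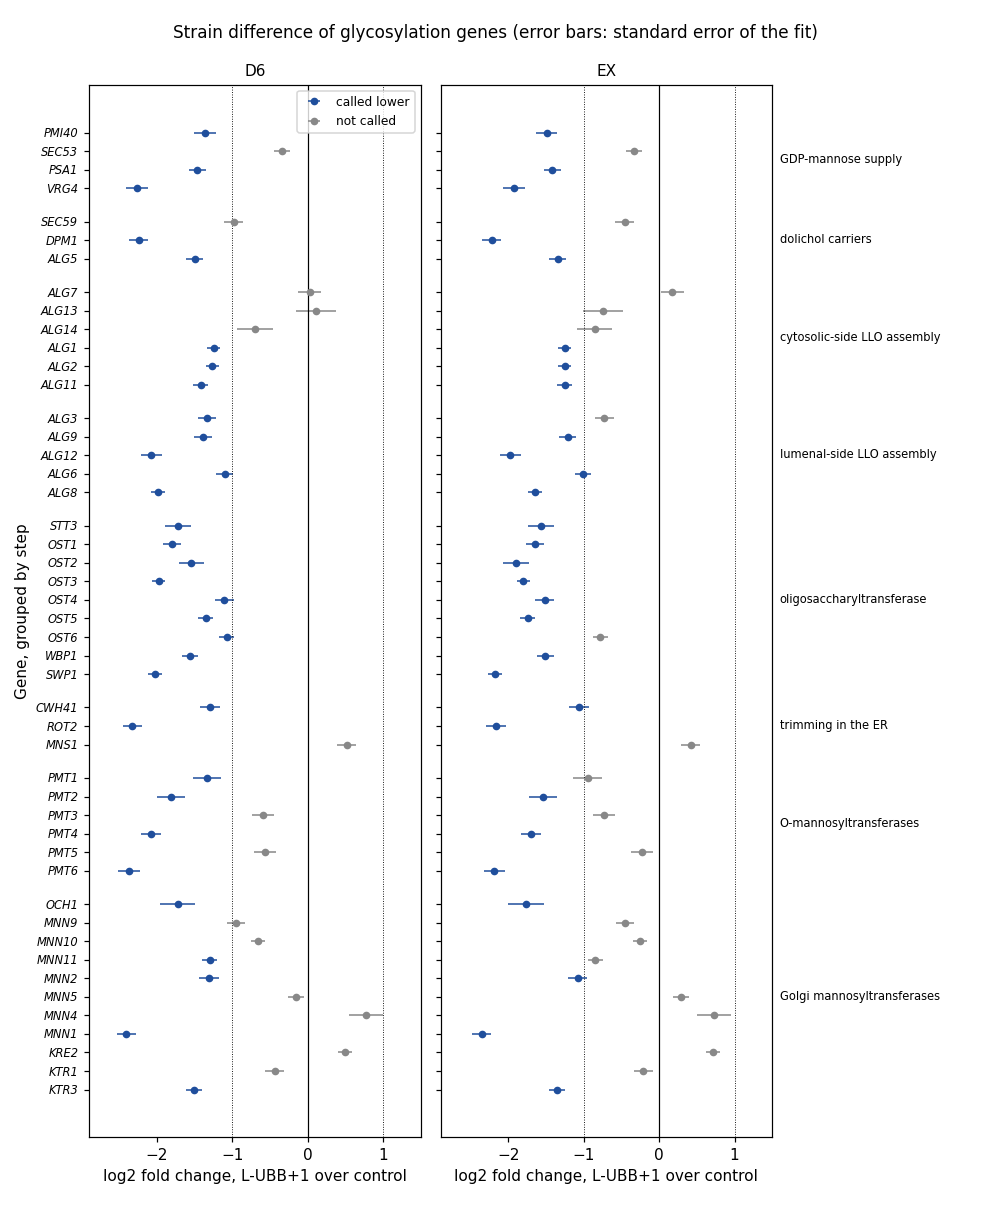
Log2 fold change of L-UBB+1 over control (horizontal axis) for each gene, at D6 (left) and EX (right), with the standard error of the limma fit, n = 2 arrays per group, and dotted lines at the minimum fold. The 9 oligosaccharyltransferase subunits lie between -2.18 and -0.78, and the 11 Golgi genes spread from -2.41 to 0.77.

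Trimming in the ER was split. *CWH41*, glucosidase I, and *ROT2*, the catalytic subunit of glucosidase II, were called lower at both phases, against 14.9% of all genes. *MNS1*, the ER mannosidase, was called at neither phase. *ROT2* had log2 levels of 6.97 and 6.73 in L-UBB+1 D6 against 9.10 and 9.25 in control D6, and 6.82 and 7.04 in L-UBB+1 EX against 9.04 and 9.13 in control EX. It was 5.01-fold lower at D6 and 4.48-fold lower at EX, and *CWH41* had log2 fold changes of -1.30 and -1.06. *GTB1*, the other subunit of glucosidase II, named after its values were seen, had log2 fold changes of -0.90 and -0.76 and was not called. *MNS1* was at 8.45 and 8.57 in L-UBB+1 D6 against 7.84 and 8.15 in control D6, and at 8.61 and 8.45 in L-UBB+1 EX against 8.14 and 8.08 in control EX. Its log2 fold change was 0.52 at D6 (95% interval 0.22 to 0.81) and 0.42 at EX (0.12 to 0.72).

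Among the protein O-mannosyltransferases, 4 of 6 were called lower at D6 and 3 at EX, against 18.5% and 17.1% of all genes. *PMT6* had the largest change, with log2 levels of 6.89 and 6.73 in L-UBB+1 D6 against 9.07 and 9.29 in control D6, and 6.78 and 7.09 in L-UBB+1 EX against 9.06 and 9.18 in control EX (5.17-fold and 4.55-fold lower). *PMT4*, which acts as a homodimer on membrane proteins, was 4.22-fold lower at D6 and 3.25-fold lower at EX. Pmt1 and Pmt5 form heterodimers with Pmt2 and Pmt3, of which Pmt1-Pmt2 is the main one and Pmt5-Pmt3 a second. *PMT2* was at 8.68 and 9.02 in L-UBB+1 D6 against 10.45 and 10.89 in control D6, and at 9.04 and 8.76 in L-UBB+1 EX against 10.43 and 10.46 in control EX, a log2 fold change of -1.82 and -1.54. *PMT1* was at 8.38 and 8.78 in L-UBB+1 D6 against 9.71 and 10.11 in control D6, and at 8.92 and 8.61 in L-UBB+1 EX against 9.66 and 9.77 in control EX. Its change was called at D6 (-1.33) and not at EX (-0.95; adjusted p = 0.00262 from limma). Both genes of the main dimer thus lay lower in every L-UBB+1 array than in every control array, as did 38.1% of all genes.

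*PMT3* and *PMT5* of the second dimer were called at neither phase. *PMT3* was at 7.99 and 7.69 in L-UBB+1 D6 against 8.28 and 8.59 in control D6, and at 7.68 and 7.80 in L-UBB+1 EX against 8.55 and 8.40 in control EX, a log2 fold change of -0.60 and -0.74. *PMT5* was at 7.30 and 7.42 in L-UBB+1 D6 against 7.73 and 8.11 in control D6, and at 7.49 and 7.34 in L-UBB+1 EX against 7.57 and 7.72 in control EX. The log2 fold change of *PMT5* was -0.56 at D6 (95% interval -0.90 to -0.23) and -0.23 at EX (-0.57 to 0.11). *PMT1* at D6 lost its call without control EX replicate 1 or 2 (adjusted p = 0.00143 each), control D6 replicate 1 (0.00113) or 2 (0.00386) or L-UBB+1 D6 replicate 1 (0.00191, all from limma), while its log2 fold change stayed between -1.53 and -1.13. *PMT2* at EX lost its call without control EX replicate 1 (0.00202) or 2 (0.0022) or L-UBB+1 EX replicate 2 (0.00131, limma), with log2 fold changes from -1.56 to -1.40, and its D6 call was kept without any single array.

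Of the 11 Golgi genes 5 were called lower at D6 and 4 at EX, against 18.5% and 17.1% of all genes. Their log2 fold changes ran from -2.41 to 0.77 at D6 and from -2.35 to 0.73 at EX. *OCH1*, which starts the outer chain, was 3.31-fold and 3.41-fold lower (standard error 0.23 on the log2 scale each). *MNN1*, the terminal alpha-1,3-mannosyltransferase of N- and O-linked chains, had the largest change of all 47 genes at both phases. Its log2 levels were 8.07 and 8.35 in L-UBB+1 D6 against 10.62 and 10.62 in control D6, and 8.27 and 8.12 in L-UBB+1 EX against 10.45 and 10.63 in control EX (5.32-fold and 5.10-fold lower; limma adjusted p = 3.62e-06 and 4.35e-06). The lowest control array lay more than 2 log2 units above the highest L-UBB+1 array.

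The mannan polymerases, which lengthen the backbone of the outer chain, had smaller log2 fold changes than *OCH1* and *MNN1*. *MNN9*, which is part of both polymerase complexes, had log2 fold changes of -0.95 and -0.45 and was not called. *MNN10* was at 9.02 and 9.13 in L-UBB+1 D6 against 9.72 and 9.74 in control D6, and at 9.16 and 9.06 in L-UBB+1 EX against 9.32 and 9.41 in control EX. *MNN11*, its partner in mannan polymerase II, was at 8.56 and 8.68 in L-UBB+1 D6 against 9.85 and 9.98 in control D6, and at 8.72 and 8.57 in L-UBB+1 EX against 9.46 and 9.53 in control EX. *MNN11* was called at D6 (-1.30) and not at EX (-0.85), and *MNN10* at neither (-0.66 and -0.25). With *VAN1*, *ANP1* and *HOC1*, the other subunits of these complexes, 2 of 6 genes were called lower at D6 (*VAN1*, -1.03, and *MNN11*). At EX 0 of the 6 were called lower. The shares of all genes called lower were 18.5% at D6 and 17.1% at EX. This grouping was made after the values were seen.

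Branching enzymes ran apart. *MNN2*, which adds the first mannose of the branches, was at 8.80 and 8.64 in L-UBB+1 D6 against 9.90 and 10.15 in control D6, and at 8.62 and 8.82 in L-UBB+1 EX against 9.72 and 9.88 in control EX. It was called at both phases (-1.30 and -1.08), and its EX call was lost without control EX replicate 1 (adjusted p = 0.00134) or 2 (0.00256) or L-UBB+1 EX replicate 1 (0.00176 from limma), with log2 fold changes of -1.17, -0.998 and -0.983. *MNN5*, which adds the second mannose, was at 9.17 and 9.27 in L-UBB+1 D6 against 9.33 and 9.42 in control D6, and at 9.29 and 9.35 in L-UBB+1 EX against 8.93 and 9.14 in control EX. The L-UBB+1 arrays thus lay below the control arrays at D6 and above them at EX. Neither difference was called (log2 fold changes -0.16, 95% interval -0.41 to 0.09, and 0.29, 0.04 to 0.54).

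*MNN4* and *KRE2* were the Golgi genes with higher levels on every L-UBB+1 array than on every control array (38.3% of all genes). Neither reached the fold of a call. *MNN4*, a regulator of mannosylphosphate transfer, was at 9.62 and 9.99 in L-UBB+1 D6 against 8.69 and 9.38 in control D6, and at 10.14 and 10.01 in L-UBB+1 EX against 9.40 and 9.29 in control EX. Its log2 fold change was 0.77 at D6 (95% interval 0.24 to 1.30) and 0.73 at EX (0.20 to 1.26). *KRE2*, an alpha-1,2-mannosyltransferase of O- and N-linked chains, was at 11.10 and 11.20 in L-UBB+1 D6 against 10.61 and 10.70 in control D6, and at 11.23 and 11.16 in L-UBB+1 EX against 10.41 and 10.55 in control EX (log2 fold changes 0.50 and 0.71). Its relatives *KTR1* and *KTR3* were lower. *KTR3* was at 8.001 and 8.096 in L-UBB+1 D6 against 9.45 and 9.67 in control D6, and at 7.98 and 8.06 in L-UBB+1 EX against 9.34 and 9.41 in control EX, and was called at both phases (-1.51 and -1.35). *KTR1* was at 9.98 and 10.15 in L-UBB+1 D6 against 10.34 and 10.66 in control D6, and at 10.12 and 10.16 in L-UBB+1 EX against 10.34 and 10.36 in control EX, with log2 fold changes of -0.44 and -0.21 that were not called. Of 9 genes of the KRE2/MNT1 family, grouped after the values were seen, *KTR3* was the 1 called at each phase. Of all genes 18.5% were called lower at D6 and 17.1% at EX. The others of the family ranged from *KTR2* (-0.83 and -0.87) to *KTR4* (0.52) at D6 and *KRE2* (0.71) at EX.

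**Figure D3:**
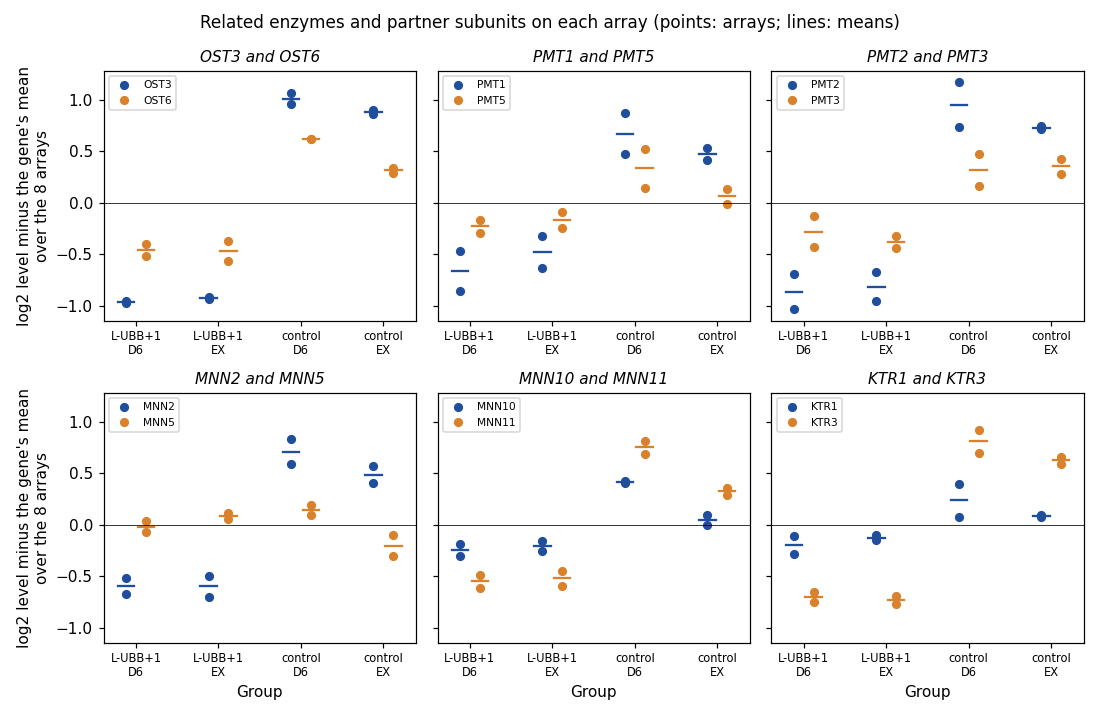
Log2 level minus the gene's own mean over the 8 arrays (vertical axis) for 6 pairs of related enzymes or partner subunits in each group, with points for arrays and lines for the mean of 2. *OST3*, *PMT1*, *PMT2*, *MNN2*, *MNN11* and *KTR3* spread more between the strains than their partners.

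Within each of these 6 pairs, the gene with the more negative log2 fold change was the same at both phases. The phases are not separate support for this order, because 0 of all genes were called between them in either strain. The log2 fold change of *OST3* minus that of *OST6* was -0.90 at D6 and -1.02 at EX. For *MNN2* minus *MNN5* the differences were -1.15 and -1.37, for *PMT2* minus *PMT3* -1.22 and -0.81, for *PMT1* minus *PMT5* -0.77 and -0.72, for *MNN10* minus *MNN11* 0.64 and 0.60 and for *KTR1* minus *KTR3* 1.08 and 1.14. These differences between genes were not tested. Across the 47 genes, the EX log2 fold change had a Pearson correlation of -0.29 and a Spearman correlation of -0.34 with the mean control EX level. This is a description over genes measured on the same arrays, and both quantities hold the control EX values.

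Between the phases, no gene of the 47 was called in either strain by limma, as was the case for 0 of all 5444 genes. In the control strain 12 of the 47 had an unadjusted p under 0.05 (25.5%, against 27.2% of all genes), and 33 of 47 had a higher mean at D6 than at EX (70.2%, against 50.1%). *ALG3* had the largest positive difference, with 8.71 and 8.88 in control D6 against 8.04 and 8.26 in control EX, a log2 difference of 0.65, and it was the 1 gene with an adjusted p under 0.05 (0.0441; 3.51% of all genes). *MNN9*, *MNN11*, *SEC59* and *MNN10* followed, with log2 differences of 0.45, 0.43, 0.38 and 0.37 and adjusted p from 0.0599 to 0.11. At the other end *ALG13* had a difference of -0.73, followed by *OST4* (-0.36), *MNN4* (-0.31) and *OST5* (-0.29). In the L-UBB+1 strain 0 of the 47 genes had an unadjusted p under 0.05 (0.184% of all genes), and the log2 differences of D6 and EX lay between -0.27 for *MNN4* and 0.13 for *ALG13*. Over the 47 genes, the close pairs of L-UBB+1 arrays across the phases differed by SDs of 0.065 and 0.111. Replicates of that strain differed by 0.216 at EX and 0.24 at D6, and the remaining pairs across its phases by 0.266 and 0.203. With some arrays closer across the phases than within them, this comparison cannot show that the phases are alike.

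**Figure D4:**
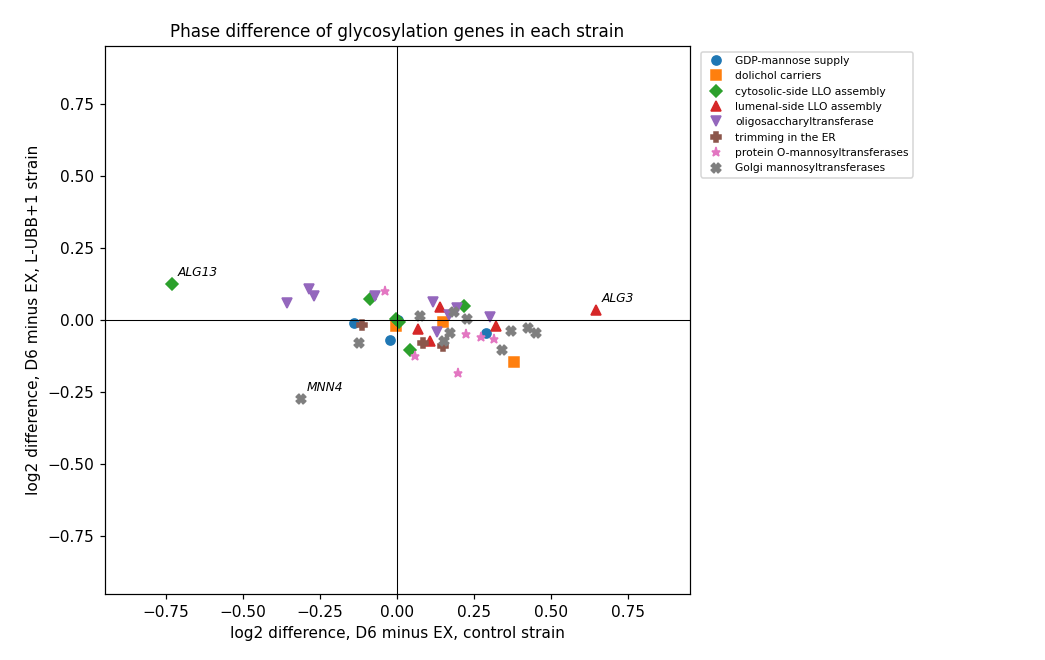
Log2 difference of D6 minus EX for each of the 47 genes in the control strain (horizontal axis) and in the L-UBB+1 strain (vertical axis), with symbols for the steps. The points spread from -0.73 (*ALG13*) to 0.65 (*ALG3*) along the control axis and from -0.27 (*MNN4*) to 0.13 along the L-UBB+1 axis.

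*ALG3*, *OST6*, *PMT1* and *MNN11* were called lower at D6 and not at EX, which by itself does not show that the strain effect differed. These were 4 of the 47 genes, against 193 of all 5444 genes called lower at D6 only. The strain effect at D6 minus that at EX was tested in limma as an interaction term, and 0 of the 47 genes had an adjusted p under 0.05 (0 of all genes). At an unadjusted p under 0.05 there were 8 of 47 (17.0%, against 15.9% of all genes), 7 of them with a more negative strain effect at D6 (14.9%, against 8.52%). These were *ALG3* (-0.61), *SEC59* (-0.53), *MNN9* (-0.50), *MNN11* (-0.45), *MNN5* (-0.45), *MNN10* (-0.41) and *ALG8* (-0.34), and the other was *OST5* (0.40). Their adjusted p lay between 0.275 and 0.303. For *OST6* and *PMT1* the differences were -0.29 and -0.38, with adjusted p of 0.364 and 0.501. The control D6 arrays enter both this test and the phase difference of the control strain. For the 7 genes, D6 minus EX was 0.32 to 0.645 in the control strain and -0.145 to 0.035 in the L-UBB+1 strain. Their interaction terms thus largely repeat the phase difference of the control strain.

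Of 35 listed glycosylation genes outside the 47, 33 were measured and 24 of these were called at neither phase, against 59.3% of all genes. Of the 33, 6 were called lower at D6 (18.2%) and 8 at EX (24.2%), against 18.5% and 17.1% of all genes, with 0 called higher at either phase, against 17.9% and 17.2% of all genes, and median log2 fold changes of -0.46 and -0.33. *UGP1*, which makes UDP-glucose, was at 8.42 and 8.18 in L-UBB+1 D6 against 9.90 and 10.42 in control D6, and at 8.25 and 8.60 in L-UBB+1 EX against 11.02 and 10.82 in control EX, and was 3.63-fold and 5.64-fold lower. *DFG10*, the polyprenol reductase that completes dolichol, was at 6.53 and 6.39 in L-UBB+1 D6 against 7.83 and 7.93 in control D6, and at 6.30 and 6.37 in L-UBB+1 EX against 8.11 and 8.05 in control EX, and was 2.68-fold and 3.35-fold lower. Without both L-UBB+1 arrays numbered 1, 5 of these genes in place of 9 were called at either phase, and the D6 call of *UGP1* was lost without those arrays (log2 fold change -1.98, adjusted p = 0.00108 from limma) or without both numbered 2 (-1.74, 0.00168).

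Among the other called genes, named after their values were seen, were *CAX4*, which recycles the dolichol carrier (-1.24 and -1.16), *QRI1*, the last enzyme of UDP-N-acetylglucosamine synthesis (-1.55 and -1.74), and *PMT7* (-1.28 and -1.51). *GNA1*, an earlier enzyme of that synthesis, was called at EX (-1.47) and not at D6 (-0.95). *RER2* and *NUS1*, of the prenyltransferase that makes the dolichol chain in growing cells, had log2 fold changes of -0.19 and -0.42 at D6 and -0.08 and -0.51 at EX and were not called. *SRT1*, the alternative prenyltransferase, was at 7.92 and 7.40 in L-UBB+1 D6 against 5.80 and 6.05 in control D6, and at 7.42 and 8.49 in L-UBB+1 EX against 6.44 and 6.04 in control EX. Its log2 fold changes of 1.73 and 1.71 were the highest among these genes and did not pass the adjusted p of a call (0.0025 and 0.00276 from limma).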

How the data were processed

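Total RNA of 8 yeast cultures was hybridized to Affymetrix GeneChip Yeast Genome 2.0 arrays. The authors processed the scans in R with PIANO and deposited a normalized log2 level for each probe set; how the arrays were normalized and probes summarized is not stated in the sources read here. The submitters' processing notes name R 3.2.3. Values were used as deposited. Of 5705 probe sets, 5489 had 1 gene in the platform annotation and 216 had none named and were left out, with 12 symbols updated by gene ID. Where a gene had several probe sets (43 genes, none of the 47), that with the highest mean was kept, which left 5444 genes. No probe set of the 47 genes was of a type that can hybridize to related transcripts.

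The 4 group means were fitted with limma 3.58.1 in R 4.3.3 (4 residual and 3.26 prior degrees of freedom), with Benjamini-Hochberg adjustment over all genes. Calls needed an adjusted p under 0.001 with a difference of 1 or more in log2 level. The fitting code was checked on simulated data beforehand. With 2 arrays per group, the number of arrays limits the precision. The genes and lists were chosen with earlier results of these data known. Named with values on every array were the lowest and highest gene of each step at EX, genes whose strain difference changed sign between the phases, both genes of 6 pairs, and the 2 largest calls in each direction among the other glycosylation genes at EX; *KRE2* and *SRT1* were added after their values were seen. Alternatives covered normalization, centring, dim genes, the choice of probe sets, which groups entered the fit, the prior, thresholds, a replicate block and each array left out. Planned protein and promoter sequence comparisons were not made here.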

Additional observations from a re-analysis of the deposited data

Results flagged for a closer look

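*MNN5* was the 1 gene of the 47 whose L-UBB+1 arrays lay wholly on opposite sides of the control arrays at the 2 phases, below at D6 (9.17 and 9.27 in L-UBB+1, 9.33 and 9.42 in control) and above at EX (9.29 and 9.35 in L-UBB+1, 8.93 and 9.14 in control). The strain effect at D6 minus that at EX was -0.45 on the log2 scale (standard error 0.15), and the interaction test of limma did not pass after adjustment (unadjusted p = 0.0194, adjusted p = 0.275). An unadjusted p under 0.05 in this test was found for 15.9% of all genes. How many of all genes switch sides as *MNN5* did was not counted, so the pattern cannot be called particular to it.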

How the results depend on the processing

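The count of the 47 genes called lower stayed within 1.5 times the main count under all alternatives. Leaving out each array in turn gave 26 to 33 genes called lower at D6 and 23 to 29 at EX, 0 called higher, 0 called between phases or for the interaction, 7 to 10 other glycosylation genes, and median log2 fold changes of -1.42 to -1.28 at D6 and -1.31 to -1.24 at EX. With an adjusted p under 0.05 and no minimum fold, 41 genes were lower and 3 higher at D6, and 40 lower and 4 higher at EX. By this rule 38.4% of all genes were lower and 37.7% higher at D6, and 37.5% and 37.2% at EX. Between the phases of the control strain 1 of the 47 was called, against 3.51% of all genes. Of the 33 other glycosylation genes 24 were called, where most of all genes were called at each phase. Without both L-UBB+1 arrays numbered 1 (1 array of each close pair stays; chosen after seeing the data), 27 and 24 genes were lower at D6 and EX, and 5 other glycosylation genes were called; without both numbered 2, also chosen afterwards, 28 and 25 were lower. *ALG7* at D6 turned to -0.057 under quantile normalization and -0.026 without both arrays numbered 2, and lay between -0.21 (without control D6 replicate 1) and 0.27 when single arrays were left out. *ALG13* at D6 turned to -0.18 without both arrays numbered 1 and lay between -0.18 (without L-UBB+1 D6 replicate 1) and 0.40. Without both arrays numbered 1 the D6 calls of *PMT2* (-1.65 on the log2 scale, adjusted p = 0.00109 from limma) and *ALG3* (-1.25, 0.00108) were also lost, and without both numbered 2 that of *MNN2* (-1.23, 0.00134). The cause was not tested.

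Replicate numbers did not pair the strains: deviations of same-numbered arrays correlated at -0.39 between the strains at EX and -0.21 at D6. Between L-UBB+1 EX and L-UBB+1 D6 the correlation was -0.855, so that arrays with crossed numbers deviated together. It was -0.10 between control EX and control D6. Over all genes the crossed L-UBB+1 arrays differed by SDs of 0.086 and 0.143, and its replicates by 0.249 at EX and 0.287 at D6. The main fit treated all arrays as independent. With the replicate block 33 and 29 genes were called lower at D6 and EX, and with crossed numbers, chosen after seeing the data, also 33 and 29.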
